A study of Mus musculus with 4 samples.

Results

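The genes described here encode the WNT pathway: ligands, the proteins that release or potentiate them, receptors, secreted inhibitors, transducers inside the cell, and feedback and target genes. They were measured in hair follicle stem cells, cells from which the follicle is rebuilt for every hair cycle. They had been isolated by FACS from skin of C57BL/6 mice at postnatal day 4. The KO cells came from mice labelled as miR-205 knockout (2 arrays) and the WT cells from mice labelled as wild type (2 arrays), each hybridised to 1-colour Affymetrix arrays with biotin-labelled RNA and numbered 1 and 2 as biological replicates. The labels do not say which part of the locus is missing, whether the deletion is limited to 1 tissue, or whether a replicate is 1 animal or a pool, so p-values measure only the spread between these samples. The treatment text attached to all 4 arrays describes other mice, in which doxycycline induces miR-203 under a keratin 14 driver, and groups were taken from the titles.

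Members were the 43 listed symbols, each represented by the probe set with exactly that symbol in the platform annotation and the highest mean over the 4 arrays. 42 of the 43 had a probe set, out of 18193 genes in all, and Tcf7, a DNA-binding partner of β-catenin, had none here. The 42 comprised 9 WNT ligands, 3 genes for ligand release and potentiation, 10 receptors, 7 secreted inhibitors, 7 transducers and 6 feedback and target genes.

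WNT proteins are lipid-modified signals made by the acyltransferase PORCN and carried to the cell surface by WLS. They bind Frizzled receptors and the co-receptors LRP5 and LRP6, which recruits Dishevelled proteins and stops the APC and AXIN complex from degrading β-catenin (Ctnnb1). β-Catenin then enters the nucleus and acts with LEF and TCF factors on target genes, several of which encode inhibitors of the same pathway. In skin the pathway is known for the formation of the follicle, for hair shaft differentiation and for the activation of follicle stem cells at the start of hair growth.

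The RNA removed in the KO is a microRNA, and its 2 mature strands are shown because each recognises targets through its seed, bases 2 to 8, given here in capitals. The sequences are those of RefSeq on GRCm38.p6, from a hairpin of 68 bases on the minus strand at chr1:193507463-193507530, with the 5p strand at chr1:193507503-193507524 and the 3p strand at chr1:193507467-193507488. The seeds are different, and no transcript sequence was searched for them here.
mmu-miR-205-5p: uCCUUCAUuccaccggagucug
mmu-miR-205-3p: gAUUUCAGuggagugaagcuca

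Promoters of the members were also searched, since genes of this pathway can be targets of it. The motif was the LEF and TCF letters CTTTGAT on either strand, in windows from 250 bases before to 50 after a gene's start in RefSeq on GRCm38.p6. 26 members matched an entry, and 2 of them (7.69%) held the motif, against 4.29% of all 27025 genes with an entry. Both matches are shown as 30 bases in the direction of the gene with the motif in capitals, at chr2:70474808-70474837 on the plus strand for Sp5, a transcription factor gene known as a WNT target, and at chr7:98835050-98835079 on the plus strand for the ligand gene Wnt11. The motif was centred at position -101 from the start of Sp5 and at -48 from that of Wnt11.
Sp5: ggcaaggccccCTTTGATcaggaaaatcca
Wnt11: gacgtgggcggATCAAAGcgacggtccgcg

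The deposited values are on the log2 scale, as RMA gives them, so a difference of 1 is 2-fold. Paired values of a group are those of number 1 and then number 2. Array medians lay between 5.85 and 5.87. The host transcript Mir205hg was at 6.52 and 6.13 in KO cells and at 5.81 and 5.30 in WT cells, which does not check the genotype, since the deleted part is not stated. With limma, adjusted p was under 0.05 for 2 of the 18193 genes (0.011%), the X-linked Xist (lower in KO) and the Y-linked Eif2s3y (higher in KO), so genotype and the sex marked by these RNAs cannot be told apart. Probe sets of follicle stem cell markers were bright: Krt15 lay between 13.62 and 14.05, Lhx2 between 11.66 and 11.76 and Lgr5 between 10.84 and 11.12 on the 4 arrays. Cd34, a bulge marker of adult follicles, lay at 6.87 and 6.69 in KO cells and at 8.32 and 6.20 in WT cells. Array WT 1 stood apart in dermal fibroblast genes, whose list median over 15 genes was 9.22 and 8.86 in KO cells and 10.57 and 8.40 in WT cells. WT 1 was the highest array for 15 members (35.7%), against 17.4% of all genes. The median difference of these 15 was -0.12 with 14 lower in KO cells, and without WT 1 it was 0.06 with 4 lower. The 15 were chosen by their value on WT 1, so this change is largely fixed by the choice. It is not a result about the members.

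Which members the cells express was judged against 39 olfactory receptor genes, a family with little known expression outside the nose, because the table holds no detection calls. Their 95th centile was 5.63 and their highest value 5.98. 34 of the 42 members had a mean above 5.63, against 65.0% of all genes. Probe sets differ in affinity, so these values say which probe sets were bright and do not rank the transcripts of different genes.

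**Figure D1:**
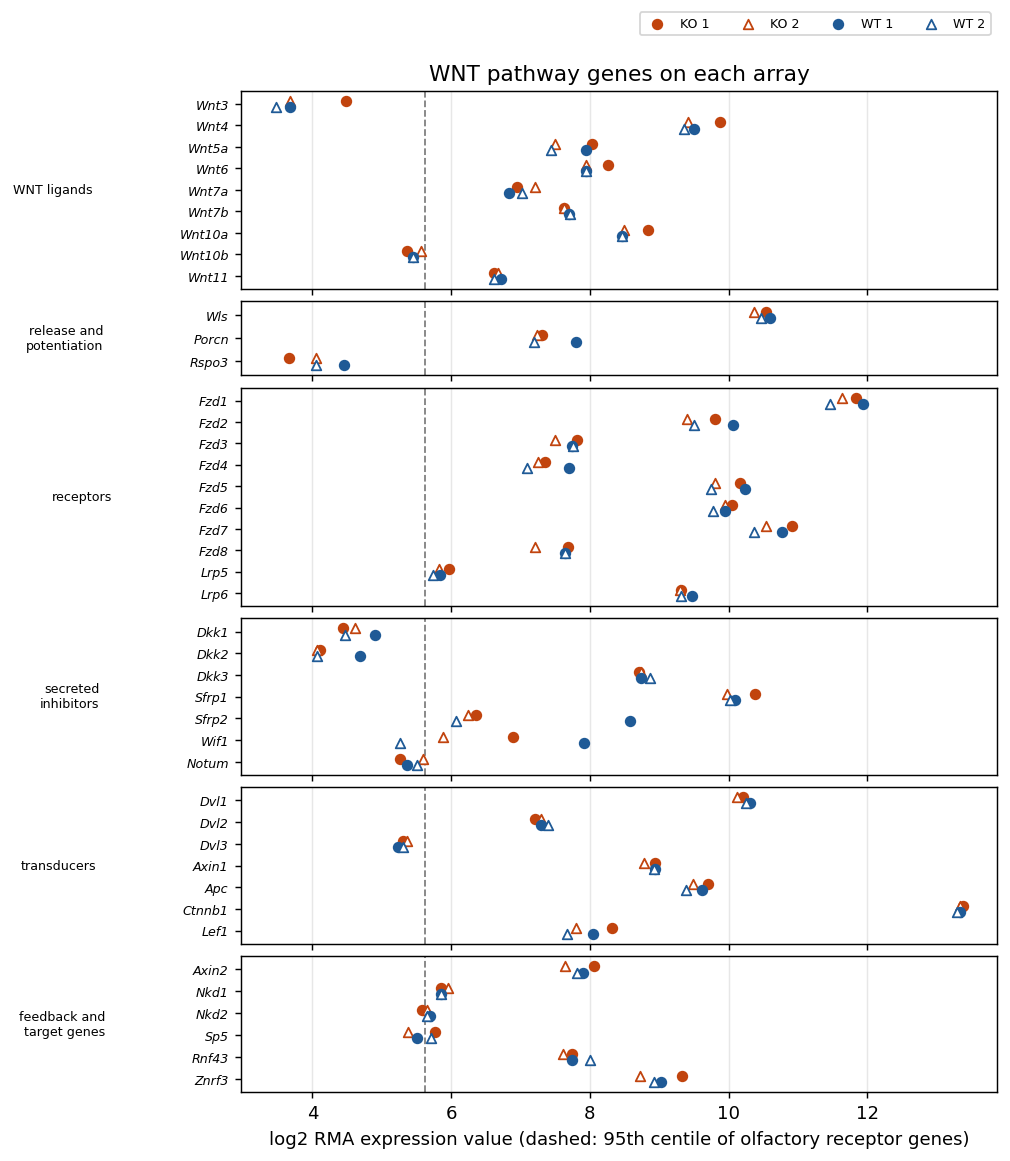
Log2 RMA expression value (x axis) of each of the 42 WNT pathway genes (rows, grouped by role) on the 4 arrays, KO in orange and WT in blue, number 1 as filled circles and number 2 as open triangles, with the limit of 5.63 from olfactory receptor genes dashed. KO and WT symbols are interleaved for most genes, and Sfrp2 and Wif1 are the rows with a single array, WT 1, far to the right.

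Among ligands, 7 of 9 probe sets were above the limit. Wnt4, a ligand of the epidermis and many other epithelia, was at 9.87 and 9.41 in KO cells and at 9.51 and 9.36 in WT cells. Wnt10a, a ligand needed for hair and teeth, was at 8.83 and 8.49 in KO cells and at 8.46 and 8.47 in WT cells. Both KO arrays were above both WT arrays for Wnt10a, by 0.02 at the nearest pair of the same number, and the Wnt4 groups overlapped.

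Wnt6, an epithelial ligand, was at 8.26 and 7.95 in KO cells and at the same value, 7.95, on both WT arrays. Wnt5a, best known for signalling that does not use β-catenin, was at 8.04 and 7.49 in KO cells and at 7.95 and 7.44 in WT cells. The gap between numbers within each genotype, 0.54 in KO and 0.51 in WT cells, exceeded the difference of 0.07 between genotypes. Wnt7b, an activator of hair growth in the follicle stem cell niche, was at 7.62 and 7.63 in KO cells and at 7.70 and 7.71 in WT cells, with both KO arrays below both WT arrays. Wnt7a was at 6.95 and 7.21 in KO cells and at 6.84 and 7.02 in WT cells, and Wnt11 lay between 6.62 and 6.72 on all arrays. Wnt3 (3.47 to 4.49) and Wnt10b (5.36 to 5.57) were not above the limit.

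None of the 9 ligands passed the threshold. Wnt4 differed by 0.21 between KO and WT cells (SE 0.20, 95% interval -0.42 to 0.84, limma adjusted p = 1). Wnt10a differed by 0.20 (SE 0.15, interval -0.26 to 0.65, limma adjusted p = 1), by 0.03 without KO 1 and by 0.37 without KO 2. Wnt7b differed by -0.08 with the narrowest interval of the ligands, -0.20 to 0.04. At an unadjusted limma p of 0.131 it had the smallest p of all 42 members. Its other probe set, with a mean of 5.46 that was not above the limit, differed by 0.22, the opposite sign. The median difference of the class was 0.15, with 7 of 9 genes higher in KO cells, against a median of 0.01 and 53.2% higher over all genes. The 7 include Wnt3 and Wnt10b, which were not above the limit. Wnt3 had the largest difference of the class, 0.51 (SE 0.34), and Wnt10b differed by 0.02. 5 of the 9 were higher in KO cells within both numbers, which held for 24.0% of all genes. The class median was 0.31 without KO 2 and 0.01 without KO 1. KO 1 was the highest array for 5 of the 9 ligands, against 25.3% of all genes. Markers of differentiated epidermis were also mostly higher in KO cells, 9 of 10 with a median difference of 0.23, and none passed the adjusted threshold. Krt1, a keratin of the layers above the basal one, was at 11.37 and 11.31 in KO cells and at 10.32 and 9.86 in WT cells (2.37-fold KO over WT, 95% interval 1.57-fold to 3.58-fold, limma adjusted p = 1), and its partner Krt10 was at 12.22 and 12.21 in KO cells and at 11.75 and 11.06 in WT cells. The list median was 9.88 and 9.62 in KO cells and 9.81 and 9.02 in WT cells, and 9 of the 10 genes were above the limit. Basal keratinocyte markers were likewise higher in KO cells for 9 of 10 (median 0.14), and hair matrix and shaft markers for 8 of 11 (0.09). Within both numbers 8 of the 10 basal and 6 of the 10 differentiated markers were higher. Follicle stem cell markers were higher for 6 of 11, immune for 4 of 8 and melanocyte for 3 of 8. Dermal papilla markers were higher for 2 of 10, endothelial for 1 of 8 and dermal fibroblast for 0 of 15. Without WT 1, dermal fibroblast markers were higher in KO cells for 14 of 15, melanocyte for 6 of 8 and follicle stem cell for 8 of 11. Basal markers were then higher for 10 of 10, differentiated markers for 9 of 10 and hair matrix and shaft markers for 9 of 11. Immune markers were then higher for 3 of 8, dermal papilla for 3 of 10 and endothelial for 2 of 8. The part of these cell types in the ligand values was not tested.

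Of the genes for ligand release and potentiation, Wls was bright, at 10.54 and 10.36 in KO cells and at 10.60 and 10.46 in WT cells. It differed by -0.08 (SE 0.10, interval -0.39 to 0.23). Porcn was at 7.31 and 7.24 in KO cells and at 7.79 and 7.19 in WT cells, so that WT 1 alone stood above the others. Porcn lies on chromosome X, and its difference of -0.22 (SE 0.25) was 0.08 without WT 1 and -0.52 without WT 2. Rspo3, an R-spondin that potentiates WNT receptors and is made by dermal papilla cells, lay between 3.67 and 4.46 and was not above the limit. Its groups met at 4.05 on KO 2 and WT 2, and its difference of -0.40 was -0.19 without WT 1 and -0.60 without WT 2. All 3 genes had lower means in KO cells, with a median difference of -0.22, which was -0.01 without WT 1 and -0.52 without WT 2.

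All 10 receptor probe sets were above the limit. Fzd1 was at 11.84 and 11.63 in KO cells and at 11.94 and 11.46 in WT cells, and Fzd7 at 10.92 and 10.53 in KO cells and at 10.77 and 10.37 in WT cells. Fzd5 was at 10.17 and 9.80 in KO cells and at 10.23 and 9.75 in WT cells. For these 3 Frizzled genes both number 1 arrays were above both number 2 arrays, and KO and WT overlapped. Fzd6, which is known for orienting hair follicles in the skin, was at 10.05 and 9.95 in KO cells and at 9.95 and 9.77 in WT cells. Fzd2 was at 9.80 and 9.40 in KO cells and at 10.06 and 9.50 in WT cells. Fzd3 (7.49 to 7.81), Fzd8 (7.22 to 7.69) and Fzd4 (7.09 to 7.70) had lower values, with Fzd4 highest on WT 1.

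The co-receptor Lrp6 was at 9.31 and 9.30 in KO cells and at 9.47 and 9.31 in WT cells. The probe set of its paralog Lrp5 lay between 5.74 and 5.96, close to the limit. Among the members nearest to 5.63 were Lrp5, Nkd1 and Nkd2 above it, with means of 5.84, 5.88 and 5.65, and Sp5 below it, with a mean of 5.59.

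No receptor passed the threshold. For each of the 10 the difference was smaller than the wider gap between arrays of 1 genotype, which held for 89.7% of all genes. The differences ran from -0.19 (Fzd8) to 0.16 (Fzd7), with a median of -0.04. For Fzd1 the difference of 0.04 had an interval from 0.643-fold to 1.64-fold KO over WT, and for Fzd6 the difference of 0.14 had one from 0.904-fold to 1.35-fold. Lrp6 differed by -0.08 (SE 0.08, interval -0.32 to 0.16, limma adjusted p = 1). The class median was 0.18 without WT 1 and -0.18 without WT 2.

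**Figure D2:**
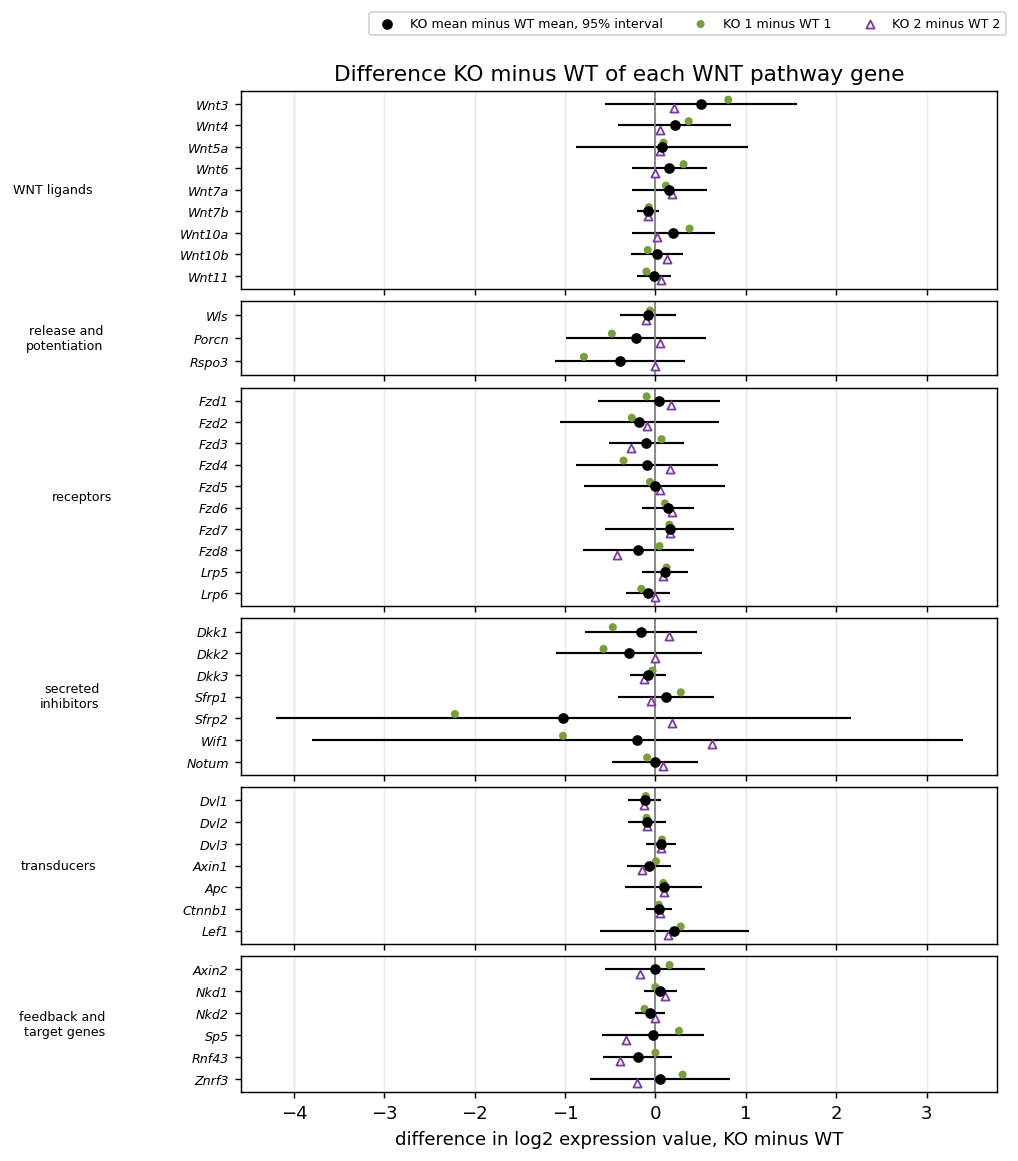
Difference in log2 expression value, KO minus WT (x axis), for each WNT pathway gene (rows, by role), as a black point with its 95% interval from limma (n = 2 each), a green circle for KO 1 minus WT 1 and an open triangle for KO 2 minus WT 2. Every interval includes 0, and those of Sfrp2 and Wif1 are the widest.

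Secreted inhibitors held the members that varied most between arrays. Sfrp2, which encodes a Frizzled-related protein that binds WNT ligands, was at 6.35 and 6.25 in KO cells and at 8.57 and 6.06 in WT cells. Wif1, which encodes another protein that sequesters WNT ligands, was at 6.90 and 5.88 in KO cells and at 7.92 and 5.26 in WT cells. Both genes were highest on WT 1 and lowest on WT 2, and the KO arrays lay between them.

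The difference of Sfrp2 was -1.02 (SE 1.01, interval -4.20 to 2.17, limma adjusted p = 1). It was 0.24 without WT 1 and -2.27 without WT 2. That of Wif1 was -0.20 (SE 1.15, interval -3.80 to 3.40, limma adjusted p = 1). It was 1.13 without WT 1 and -1.53 without WT 2. Leaving out the highest or the lowest WT array moves a difference in a direction fixed by that choice. Sfrp2 was the only member at least 1.5-fold different between genotypes, against 114 of all 18193 genes. The order of arrays, WT 1 highest and KO 1 second, was also that of 14 of the 15 dermal fibroblast genes, including the collagen gene Col1a2 (13.10 and 11.86 in KO cells, 13.89 and 11.34 in WT cells) and Pdgfra (7.94 and 6.68 in KO cells, 9.22 and 6.57 in WT cells). The same order held for 5 of 8 melanocyte and 4 of 11 hair matrix and shaft markers. In bulk samples more cells of a type and more RNA per cell cannot be told apart. The part of these cell types in Sfrp2 and Wif1 was not tested.

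Sfrp1, a second Frizzled-related inhibitor, was bright, at 10.37 and 9.97 in KO cells and at 10.09 and 10.02 in WT cells. It did not share the order of Sfrp2, since KO 1 was highest and KO 2 lowest. Dkk3, a divergent member of the Dickkopf family, lay between 8.71 and 8.86 on all arrays and differed by -0.08 (SE 0.06, interval -0.28 to 0.12). The Dickkopf genes Dkk1 and Dkk2, whose proteins block LRP5 and LRP6, lay between 4.44 and 4.91 and between 4.06 and 4.69, not above the limit, each highest on WT 1. Notum, which encodes an enzyme that removes the lipid from WNT proteins, lay between 5.27 and 5.60, not above the limit either. 6 of the 7 inhibitors had lower values in KO cells, with a median of -0.16, and the median was 0.06 without WT 1 and -0.38 without WT 2.

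Among transducers, the probe set of Ctnnb1 (β-catenin) was the brightest of the members, above 99.6% of genes. It was at 13.37 and 13.34 in KO cells and at 13.34 and 13.29 in WT cells. The difference of 0.04 (SE 0.05, limma adjusted p = 1) had an interval from 0.934-fold to 1.14-fold KO over WT. Of the Dishevelled genes, Dvl1 was at 10.21 and 10.12 in KO cells and at 10.31 and 10.25 in WT cells, with both KO arrays below both WT arrays. It differed by -0.12 (SE 0.06, interval -0.30 to 0.06, limma adjusted p = 1), and by -0.09 without WT 1. Dvl2 (7.20 to 7.39) overlapped between genotypes, and Dvl3 (5.23 to 5.36) was not above the limit.

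The scaffold genes of the complex that degrades β-catenin were Apc, at 9.70 and 9.48 in KO cells and at 9.61 and 9.38 in WT cells, and Axin1, at 8.94 and 8.78 in KO cells and at 8.94 and 8.92 in WT cells. Lef1, the nuclear partner of β-catenin that is known for the hair matrix and precortex, was at 8.32 and 7.80 in KO cells and at 8.04 and 7.67 in WT cells. Lef1 differed by 0.21 (SE 0.26, interval -0.62 to 1.03, limma adjusted p = 1), less than the gap of 0.52 between the KO arrays. The transducers had a median difference of 0.04, with 4 of 7 higher in KO cells, and no member passed.

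Feedback and target genes are the usual transcript readout of β-catenin activity. Axin2, which encodes a scaffold that the pathway induces and that restrains it in turn, was at 8.06 and 7.64 in KO cells and at 7.90 and 7.81 in WT cells. The KO arrays lay on either side of the WT arrays, and the difference was -0.01 (SE 0.18, limma adjusted p = 1) with an interval from 0.677-fold to 1.47-fold. Znrf3 and Rnf43 encode membrane ubiquitin ligases that remove Frizzled receptors. Znrf3 was at 9.32 and 8.73 in KO cells and at 9.02 and 8.93 in WT cells, again with KO on either side of WT. Rnf43 was at 7.75 and 7.61 in KO cells and at 7.75 and 8.00 in WT cells, and differed by -0.19 (SE 0.12, interval -0.58 to 0.19). The Dishevelled antagonists Nkd1 (5.85 to 5.96) and Nkd2 (5.58 to 5.70) were close to the limit, with a difference of -0.06 for Nkd2 that was -0.04 without WT 1, and Sp5 (5.38 to 5.77), whose promoter match is shown above, was not above it by its mean.

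The 6 genes had a median difference of -0.02, with 2 higher and 4 lower in KO cells, and none moved the same way within both numbers. Within number 1 the median of KO minus WT was 0.08, and within number 2 it was -0.18. The class median was -0.22 without KO 1 and 0.08 without KO 2.

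Over all roles, 0 of the 42 members had an adjusted p under 0.05 with limma, and 0 had an unadjusted p under 0.05, against 0.011% and 1.88% of all genes. The median difference was -0.01, against 0.01 over all genes, with 18 members higher and 24 lower in KO cells. Without a single array the median over members ran from -0.07 (without KO 1) to 0.06 (without WT 1). Within both numbers 12 members were higher in KO cells, against 24.0% of genes, and 7 were lower, against 16.8%. Both KO arrays were above both WT arrays for 1 member (Wnt10a), against 8.2% of genes, and below them for 2 members (Wnt7b and Dvl1), against 5.7%. With 2 arrays per genotype the median half-width of the 95% interval was 0.47 for members and 0.29 for all genes, so smaller shifts were mostly not detectable at this precision. These widths correspond to an unadjusted limma p of 0.05, and the adjusted threshold was stricter, so larger shifts could also fail to pass. Krt1, at 2.37-fold KO over WT with an interval from 1.57-fold to 3.58-fold, did not pass. The 2 genes that passed, Xist and Eif2s3y, differed 236-fold and 98.9-fold.

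The replicate number, by contrast, separated many members. Both number 1 arrays were above both number 2 arrays for 21 of 42 members, against 22.0% of all genes, and below them for 2 members (Wnt7a and Notum), against 21.7%. 8 of the 10 receptors were in the first group, with a median gap between the numbers of 0.26 in KO cells and 0.29 in WT cells. KO 1 was the highest array for 18 members (42.9%, against 25.3% of all genes) and WT 1 for 15 (35.7%, against 17.4%). KO 2 was highest for 5 (11.9%, against 23.5%) and WT 2 for 4 (9.52%, against 19.8%). The labels do not say what the number marks, and no test of this pattern was made.

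10 members had the order WT 1 highest and KO 1 second, against 8.76% of all genes. This order held for 14 of 15 dermal fibroblast markers, and also for 5 of 8 melanocyte and 4 of 11 hair matrix and shaft markers. It held for 2 of 10 differentiated epidermis, 1 of 10 dermal papilla, 1 of 11 follicle stem cell and 1 of 8 endothelial markers. No basal keratinocyte or immune marker had it. The 10 members were Wls, Porcn, Fzd1, Fzd2, Fzd4, Fzd5, Lrp6, Dkk2, Sfrp2 and Wif1. They comprised 5 receptors, 3 secreted inhibitors and 2 genes for ligand release, but no ligand, transducer or target gene. Lrp6 was among them narrowly, with KO 1 at 9.315 and WT 2 at 9.307. The further pathway genes described below had another split by role. Among them the order held for 6 of 28 transducers, 3 of 11 target genes, 1 of 12 receptors and 1 of 10 secreted inhibitors. Of 10 dermal papilla markers, 4 were above the limit, and the list median was 5.35 and 5.18 in KO cells and 5.32 and 5.30 in WT cells. Sostdc1 (mean 11.83), Rgs2 (10.47) and Vcan (9.57) were bright and Hhip (5.70) was just above the limit, while Fgf7, Fgf10, Corin, Sox2, Alpl and Nog were not above it. Follicle stem cell markers had list medians of 10.38 and 10.01 in KO cells and 10.22 and 10.14 in WT cells, and basal keratinocyte markers 11.61 and 11.37 in KO cells and 11.47 and 11.16 in WT cells. The part of these cell types in the members' values was not tested.

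**Figure D3:**
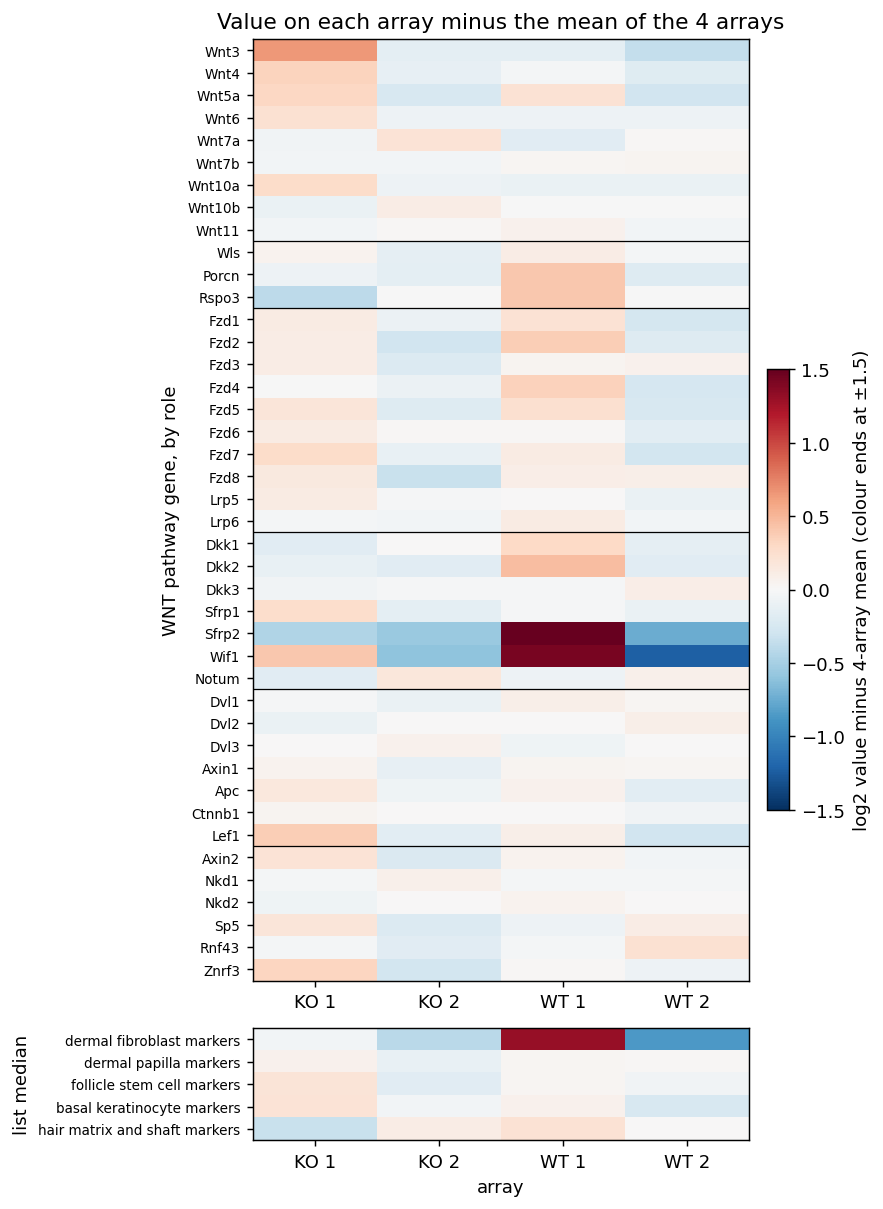
Log2 value on each array minus the mean of the 4 arrays (colour) for each WNT pathway gene (rows, by role) and, below, for the median of 5 cell type marker lists. WT 1 is red and WT 2 blue for Sfrp2, Wif1 and the dermal fibroblast list, and KO 1 and WT 1 are both red for most receptors.

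29 of the 42 members had more than 1 probe set, and for 11 of them a dimmer probe set had the opposite sign of difference, counting differences over 0.01, a limit chosen after the values were seen. Sfrp1 had 5 probe sets whose differences ran from -0.08 to 0.64. Its second brightest was at 9.81 and 10.29 in KO cells and at 9.72 and 9.10 in WT cells, so both KO arrays were above both WT arrays there, without passing the threshold. The dimmer probe sets of Ctnnb1 went against the brightest in the order of the numbers and not in that of the genotypes. The second was at 10.71 and 11.22 in KO cells and at 10.71 and 11.19 in WT cells, higher on number 2 within both.

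Fzd2, by contrast, had 3 probe sets that all were highest on WT 1, with differences from -0.18 to -0.11. Over all 93 probe sets of the members, 0 had an adjusted p under 0.05 and 2 (2.15%) an unadjusted p under 0.05, against 0.0% and 2.03% of all probe sets with 1 symbol (limma). The 2 were dim: a probe set of Nkd1 at 4.54 and 4.42 in KO cells and at 4.76 and 4.77 in WT cells, and one of Nkd2 at 4.60 and 4.60 in KO cells and at 4.76 and 4.72 in WT cells. The brightest probe sets of these genes differed by 0.05 and -0.06.

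**Figure D4:**
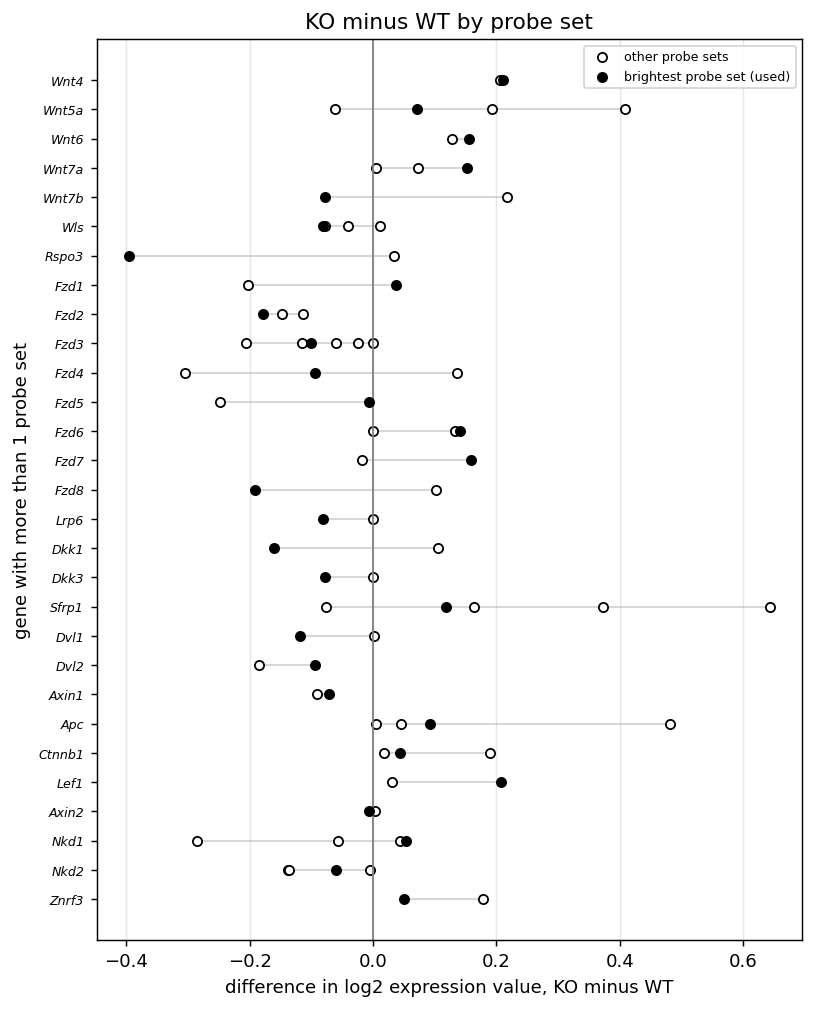
Difference in log2 expression value, KO minus WT (x axis), of every probe set of the 29 members with more than 1 (rows), with the brightest filled and the others open. Sfrp1 has the widest spread, from -0.08 to 0.64, and probe sets of Wnt7b, Rspo3, Fzd1, Fzd4 and Fzd8 lie on both sides of 0.

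Further genes of the pathway did not pass either. Of 79 measured genes of a further list, 0 had an adjusted and 0 an unadjusted p under 0.05 (limma), 37 were higher and 40 lower in KO cells, and the differences ran from -0.47 to 0.30. Of the further ligands, Wnt16 differed by 0.22 (SE 0.18) and Wnt8a, not above the limit, by 0.15 (SE 0.12). Of the further receptors, Ror2, a receptor tyrosine kinase that binds WNT5A, was at 7.59 and 7.25 in KO cells and at 7.74 and 7.61 in WT cells, a difference of -0.25 (SE 0.15) with both KO arrays below both WT arrays, and of -0.19 without WT 1. Ptk7, a co-receptor of planar polarity, was at 8.33 on 3 arrays and at 8.80 on WT 1, and its difference of -0.24 was 0.0 without that array.

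Apcdd1, an inhibitor at the membrane that is linked to hereditary hair loss in humans, was bright, at 12.31 and 11.71 in KO cells and at 11.95 and 11.70 in WT cells. Sfrp5 lay between 5.79 and 6.17. Of the further transducers, the co-repressor Tle1 was at 8.81 and 7.82 in KO cells and at 8.79 and 8.54 in WT cells, a difference of -0.35 (SE 0.41) with KO 2 alone low. Btrc, the F-box protein that marks β-catenin for degradation, differed by 0.23 (SE 0.14).

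Tcf7l1, the TCF repressor of follicle stem cells, had 10.01 on all 4 arrays. Of the R-spondins, Rspo1 and Rspo4 differed by -0.15 (SE 0.41) and 0.14 (SE 0.09), both not above the limit. Among further target genes, Twist1 was at 5.26 and 5.16 in KO cells and at 6.32 and 5.04 in WT cells, high on WT 1 alone. Its difference of -0.47 was 0.18 without WT 1, a rise whose direction is fixed by leaving out the highest array. Cxxc4 differed by 0.30 (SE 0.17), and neither Twist1 nor Cxxc4 was above the limit by its mean.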

How the data were processed

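The authors deposited 1 table of log2 values, 45101 probe sets on 4 arrays. RMA is the tool that the submitters' processing notes name, with no version; genome build and probe set definition were not given. In 47.1% of probe sets at least 2 arrays had equal values. The platform annotation of GEO supplied gene symbols, which were updated by gene identifier through the GRCm38.p6 RefSeq table: 34741 of the 34945 probe sets with 1 symbol matched, 932 had several symbols and 9160 none here. The test of KO against WT was limma (version 3.58.1, R 4.3.3; lmFit and eBayes, two-sided, without covariates or a filter), and p-values were adjusted by Benjamini and Hochberg's method over 18193 genes. This fit was tested on simulated data. The number of arrays limits the precision. Members, role lists, marker lists and the rule for named genes (all members; per role of the further list the 2 largest differences and any unadjusted p under 0.05) were chosen with earlier results of these data known. Tcf7l1 and the other genes named from marker lists were picked after their values were seen. Arrays of one number deviated together (r = 0.56 across genes), but 2 pairs with no stated link do not establish a pairing, so the main fit has no block. Alternatives were other scalings, leaving out dim genes, averaging or separating a gene's probe sets, other variance moderation, a replicate block, and leaving out each array.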

Additional observations from a re-analysis of the deposited data

How the results depend on the processing

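No WNT member passed under any alternative run with limma, and the lowest adjusted p was 0.383. At an unadjusted limma p under 0.05 there were 0 members under the gene-level alternatives that kept all 4 arrays. The count of all genes past the threshold was 2, and became 4 with each array centred on its median, 1 with only genes above the median gene, 0 with the mean of all probe sets, 0 with every probe set, 0 with the replicate block and 0 without each single array. For those counts of 0 that kept all 4 arrays, the limma counts at an unadjusted p under 0.05 were 375 with the mean of all probe sets, 711 with every probe set and 879 with the replicate block. The main fit had 342. The replicate block changed no call of a member. The median difference of feedback and target genes, -0.018, was -0.036 with quantile normalization again, -0.039 with centring and -0.046 with the mean of probe sets. Signs turned for Notum with quantile normalization again (0.0031), for Wnt10b with centring (-0.0016), and with the mean of probe sets for Wnt7b (0.069), Fzd1 (-0.083) and Nkd1 (-0.061). 14 members fell to the filter on dim genes.

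Leaving out 1 array turned the sign of 26 of 42 members. Class medians then ran from -0.22 to 0.082 for feedback and target genes, -0.046 to 0.036 for transducers, 0.011 to 0.31 for ligands, -0.18 to 0.18 for receptors, -0.38 to 0.060 for secreted inhibitors and -0.52 to -0.011 for ligand release, and over all members the median ran from -0.073 to 0.061. Of the members that kept their sign, Wnt10a ran from 0.026 to 0.37, Wnt3 from 0.10 to 0.91, Wnt7a from 0.026 to 0.28, Fzd6 from 0.052 to 0.23 and Rnf43 from -0.32 to -0.070. Among ligands and their release the differences ran from -0.020 to 0.44 for Wnt4, -0.20 to 0.34 for Wnt5a, -0.085 to 0.12 for Wnt10b, -0.069 to 0.030 for Wnt11, -0.17 to 0.0094 for Wls and -0.52 to 0.084 for Porcn. Among receptors they ran from -0.20 to 0.28 for Fzd1, -0.46 to 0.10 for Fzd2, -0.26 to 0.057 for Fzd3, -0.40 to 0.21 for Fzd4, -0.25 to 0.23 for Fzd5, -0.040 to 0.36 for Fzd7, -0.43 to 0.047 for Fzd8 and -0.16 to 0.0014 for Lrp6. Among inhibitors they ran from -0.38 to 0.060 for Dkk1, -0.60 to 0.027 for Dkk2, -0.082 to 0.32 for Sfrp1, -2.27 to 0.24 for Sfrp2, -1.53 to 1.13 for Wif1 and -0.17 to 0.16 for Notum. For the others they ran from -0.16 to 0.014 for Axin1, -0.024 to 0.21 for Apc, -0.054 to 0.47 for Lef1, -0.22 to 0.20 for Axin2, -0.23 to 0.16 for Sp5 and -0.25 to 0.35 for Znrf3. A lone array of a genotype is assumed there to vary like the other group. The cause of these changes was not tested.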
